A study of Mus musculus with 2 samples.

Results

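The miR-130 and miR-301 family is a group of vertebrate microRNAs (miRNAs) that share one seed, the stretch from base 2 to base 8 of the mature strand that pairs with target messenger RNAs. Its 5 members on the array were mmu-miR-130a, mmu-miR-130b, mmu-miR-301a and mmu-miR-301b, and mmu-miR-130b*, the strand from the other arm of the miR-130b precursor. They were taken by name from the array's annotation, as 5 of 1080 miRNAs and 14 of 2780 probes, with every probe of each kept. A miRNA precursor is a hairpin. One arm usually gives the strand that is loaded into Argonaute and guides repression, and the other, marked with an asterisk in the older nomenclature used here, usually gives the strand that is degraded. The family's guide strands are known to repress Pparg, the master regulator of fat cell differentiation, and miR-130a is known in endothelial cells for repressing the homeobox genes Meox2 and Hoxa5, which oppose blood vessel growth.

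RNA came from the medial region of the mandibular arch, where the tongue primordium forms, of ICR mouse embryos, for which the labels name no mutation and no treatment, collected on embryonic days E10.5 and E11.5. By the series text, this is the interval in which tongue myoblasts begin to differentiate. RNA of 40 embryos was pooled at each stage and each pool went onto 1 array, so the study has no replicates, differences have no test, and the values describe these 2 arrays alone. The pools hold all cell types of the dissected region. Fewer cells of a type and less RNA per cell therefore cannot be told apart. Errors below come from the replicate spots of one probe within an array, as standard deviation (SD) or standard error (SE), and leave out variation between embryos, pools and arrays.

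The mature sequences are shown because the guide strands share the seed and differ in the bases after it. They are RefSeq sequences on GRCm38.p6, written 5′ to 3′ with the seed in capitals, and a mature sequence was found for 4 of the 5 members.
miR-130a (Mir130a): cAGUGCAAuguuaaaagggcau
miR-130b (Mir130b): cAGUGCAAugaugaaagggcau
miR-301a (Mir301): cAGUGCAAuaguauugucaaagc
miR-130b* (Mir130b, other arm): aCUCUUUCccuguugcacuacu
The first 3 had the seed AGUGCAA, while miR-130b* had CUCUUUC and so belongs to the group by its precursor only. Counted from base 1, miR-130a and miR-130b differed at 2 of 22 bases. miR-301a differed from miR-130a at 10 of 22 and from miR-130b at 11.

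The RefSeq table held no mature sequence of miR-301b, so that member is outside the counts that follow. Of 1679 mature mouse miRNAs in that table, 7 had the seed of miR-130a, and 4 of these 7 were on the array. The fourth was miR-721 (Mir721), shown because it has the same first bases but gave no signal at either stage.
miR-721: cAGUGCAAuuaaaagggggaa

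Both arms of Mir130b were measured, and its hairpin is shown with the 2 mature strands in capitals, miR-130b* on the left and miR-130b on the right (GRCm38.p6, chr16:17124061-17124142, minus strand).
Mir130b hairpin: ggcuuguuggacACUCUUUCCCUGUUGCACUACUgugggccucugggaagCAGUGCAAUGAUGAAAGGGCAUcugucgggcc
The hairpin of Mir301b lies on the same strand, 257 bases away, and both fall within the span of the protein-coding gene 2610318N02Rik in the RefSeq gene table. Mir301 lies within the span of Ska2, which encodes a subunit of a complex that joins kinetochores to spindle microtubules. No other gene in that table spans Mir130a. That table gives gene spans only, so exon and intron were not resolved.

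For the 4 members with a mature sequence, the probes pair with the 3′ end of the miRNA and reach, by probe, to base 3, 4, 5 or 6, so that they cover part of the seed. In the array's own annotation (mm9) the longest probe of miR-130a was listed at chr2:84581317-84581334, that of miR-130b at chr16:17124209-17124225, that of miR-130b* at chr16:17124169-17124187, that of miR-301a at chr11:86926559-86926578 and that of miR-301b at chr16:17124551-17124569, each span being 1 base shorter than its probe. Probes of related members were close in sequence. They are shown 5′ to 3′ at the length that both members of a pair have, with the bases that differ in capitals.
miR-301a probe: gctttgacaatacTattgca
miR-301b probe: gctttgacaatacCattgca
miR-130a probe: atgccctttTaAcattgc
miR-130b probe: atgccctttCaTcattgc
The first pair differed at 1 of 20 bases and the second at 2 of 18. How much each probe reads of the close relative was not tested.

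All 5 members were detected at both stages, against 12.7% of the 1080 miRNAs (137 of 1080). This count depends on which strands are in the set, which holds miR-130b* but no other asterisk strand. The strands left out, miR-130a*, miR-301a* and miR-301b*, had 0 spots well above background. Detection of a probe required the scanner software's flag for signal well above background on 50% or more of its spots. By probe, E10.5 had 8 of the 14 and E11.5 had 10. The 4 that stayed undetected at both stages were the shorter ones of miR-301b and miR-130b*. With detection by every spot, 4 of the 5 members remained, without miR-130b*. No member spot was saturated.

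The E11.5 array was brighter for most miRNAs, so each value is given first as the processed intensity and then after scaling. The divisor of an array was the 75th percentile of its intensities over the 218 probes that both arrays detected, 194 for E10.5 and 482 for E11.5, which takes 1.31 off each log2 difference. A scaled difference describes a miRNA relative to the other detected ones.

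Relative to the other detected miRNAs, the family's members did not move as a block. The 2 strands of Mir130b were lower at E11.5, by 0.65 on the log2 scale for miR-130b and 0.86 for miR-130b*. miR-301a was higher, by 0.23. miR-130a and miR-301b lay between, at -0.20 and -0.12. Before scaling all 5 were brighter at E11.5, so the negative signs of 4 of them rest on the scaling, while miR-301a was above 0 with and without it. A single divisor per array leaves the order of the 5 as it is. Quantile normalization, which is no single divisor, put miR-130a (0.070) above miR-301b (-0.060).

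miR-130a was measured by 2 probes. Its 19-base probe had an intensity of 1362 ± 39.7 (SD, n = 19 spots) at E10.5 and 2987 ± 123 (n = 20) at E11.5. Its 18-base probe had 928 ± 12.6 (n = 16) and 1994 ± 101 (n = 18). In both probes every E11.5 spot was brighter than every E10.5 spot, by 2.19-fold and 2.15-fold on the means. After scaling the order turned: the 19-base probe stood at 7.03 times the percentile at E10.5 and 6.20 at E11.5, again without overlap of the spots. The scaled log2 difference, E11.5 minus E10.5, was -0.20 ± 0.012 (SE) over both probes, which lay 0.029 apart. Its direction depended on the processing, and it was 0.070 with quantile normalization, 0.0074 with normexp, a model-based background correction run on the raw spot means, and 0.36 in the authors' deposited value table.

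miR-130b, which differs from miR-130a at a pair of bases, gained less signal. Its 18-base probe read 754 ± 30.3 (n = 20 spots) at E10.5 and 1222 ± 42.4 (n = 19) at E11.5, and its 17-base probe read 395 ± 12.6 (n = 19) and 614 ± 20.9 (n = 17). The stages did not overlap in either probe, with ratios of 1.62 and 1.55. After scaling, the E10.5 mean of the 18-base probe was 3.89 and its E11.5 mean 2.54, still without overlap. The scaled difference was -0.65 ± 0.012 (SE), or 1.57-fold lower at E11.5, and the probes lay 0.061 apart.

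miR-301a had the largest ratio of E11.5 to E10.5 intensity in the family before scaling, although in the authors' deposited value table its log2 difference (0.25) was below that of miR-130a (0.36). Its 21-base probe read 117 ± 8.03 (n = 19 spots) at E10.5 and 341 ± 23.8 (n = 20) at E11.5, a 2.91-fold ratio with no overlap between the stages. After scaling it was at 0.604 and 0.707, a difference of 0.23 ± 0.032 (SE), and the spots of the stages overlapped. The 20-base probe, the one shown above, was detected at E11.5 only, with 22.3 ± 6.0 (n = 20) at E10.5, where 1 spot was well above background, and 69.4 ± 6.69 (n = 18) at E11.5. Taken against the lowest detected probe of the E10.5 array (30.9), that probe was at least 2.24-fold brighter at E11.5 before scaling and had no bound above 1 after it.

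miR-301b, the neighbour of miR-130b, rests on a pair of probes of which the shorter was near the detection limit at E10.5. Its 20-base probe read 64.0 ± 6.27 (n = 10 spots) at E10.5 and 133 ± 11.9 (n = 10) at E11.5, and its 19-base probe 33.5 ± 7.34 (n = 10, with 7 spots well above background) and 84.8 ± 6.68 (n = 10). The stages did not overlap before scaling and overlapped in both probes after it. The probes disagreed in sign once scaled, at -0.26 ± 0.061 (SE) for the longer and 0.027 ± 0.11 for the shorter, 0.29 apart, with a mean of -0.12 ± 0.061. Its 18-base and 17-base probes stayed at the level of the negative controls (0.473 and -1.27 at E10.5, 6.61 and 2.35 at E11.5, where negative controls averaged 7.87 ± 6.16 and 5.88 ± 5.6, SD over 1000 spots).

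miR-130b* was read close to background, and 1 of its 4 probes was detected at both stages. That 20-base probe read 33.2 ± 3.08 (n = 8 spots) at E10.5 and 45.5 ± 5.51 (n = 10) at E11.5. At E10.5, 4 of the 8 spots were well above background, which is the detection limit itself. The spots of the stages overlapped before scaling and did not after it (0.171 and 0.0945), with a scaled difference of -0.86 ± 0.073 (SE). The 19-base probe was detected at E11.5 only (29.5 ± 5.99, n = 10, against 19.0 ± 3.95 at E10.5) and had no bound above 1. Both strands of Mir130b were thus lower relative to the other miRNAs, the guide strand on bright probes and the passenger strand on one near the detection limit.

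Across the 8 member probes detected at both stages, the spots of the stages did not overlap in 7 before scaling and in 5 after it. The share without overlap among all 218 probes detected on both arrays was not counted. Neither number can therefore be read as a trait of the family. The 5 after scaling were the probes of miR-130a, miR-130b and miR-130b*, each lower at E11.5 once scaled.

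**Figure D1:**
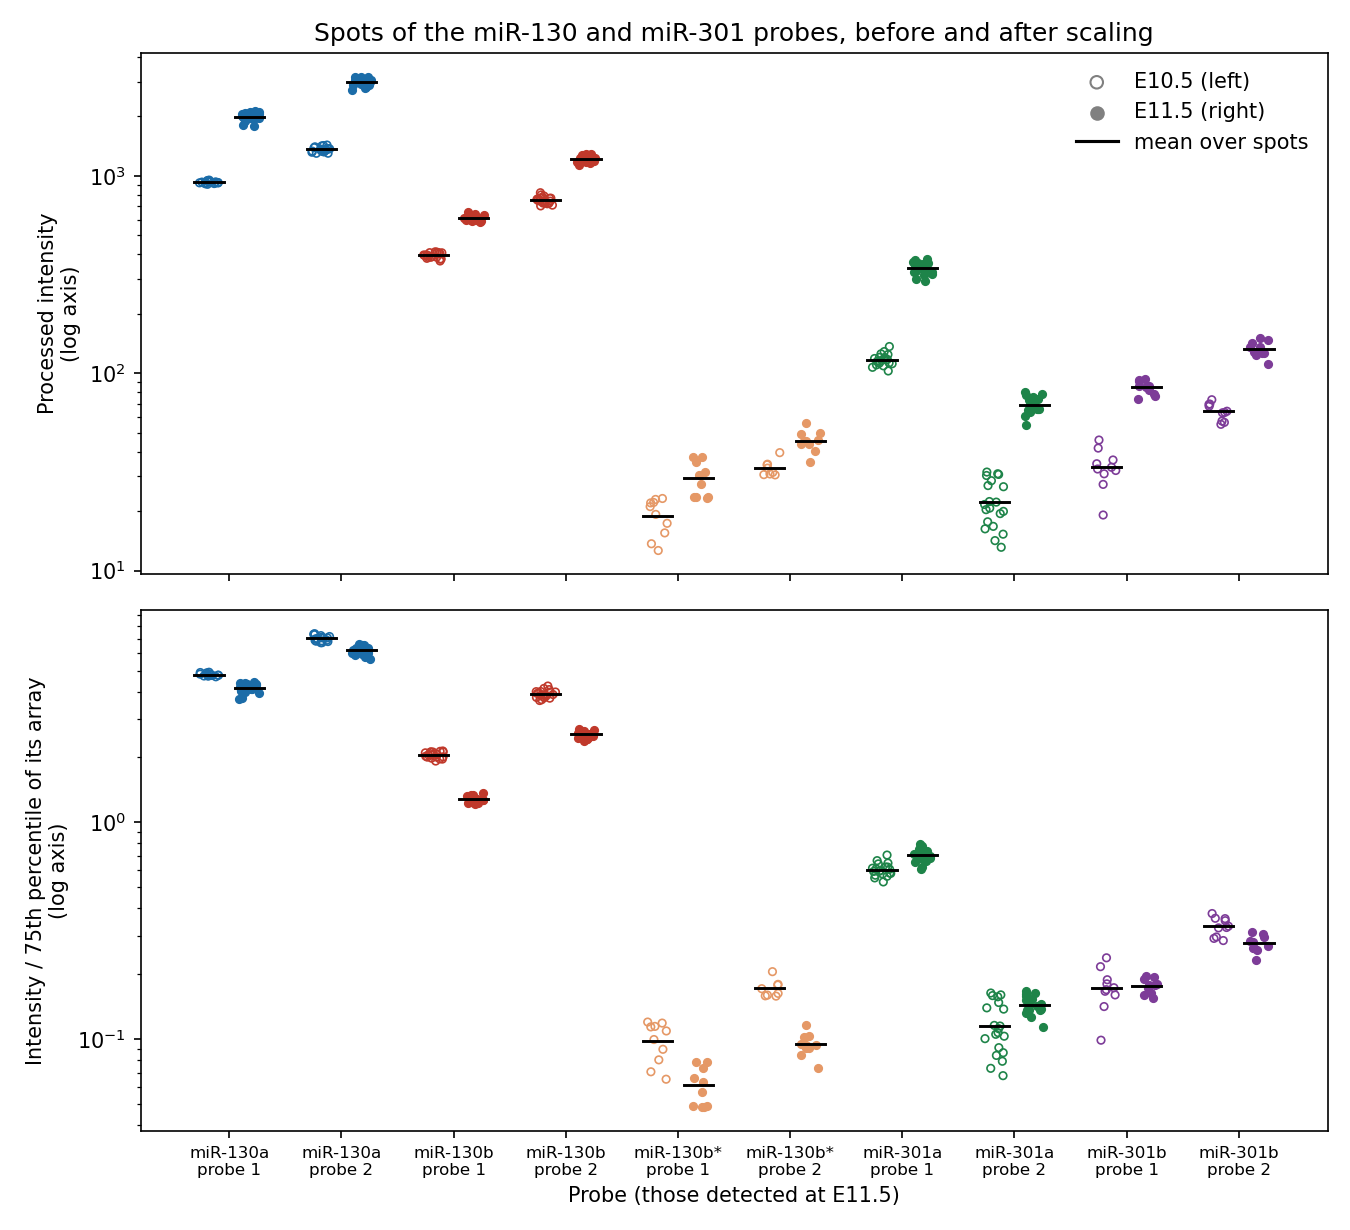
Intensity of each spot of the 10 family probes detected at E11.5, without outlier-flagged spots, as processed by the scanner software (upper panel) and divided by the 75th percentile of its array (lower panel), both on log axes. Open circles are E10.5, filled circles E11.5 and bars the mean over spots. In the upper panel every E11.5 mean is the higher one, and in the lower panel the miR-130a and miR-130b probes are lower at E11.5 without overlap, while the 21-base miR-301a probe (probe 1) is higher with overlap.

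Set against the array as a whole, the family lay close to the middle. The median of the 5 was -0.20, beside -0.07 over the 137 miRNAs measured at both stages. Of the 5 members, 4 were below 0, beside 52.6% of the 137 miRNAs. None of the 5 was 2-fold lower, beside 13.9% of the 137, and none was 2-fold higher, beside 3.65%. Before scaling, 5 of 5 were brighter at E11.5 (90.5% of the 137), and 3 of 5, miR-130a, miR-301a and miR-301b, were at least 2-fold brighter (64.2%). Counted from the lowest of the 137 differences, miR-130b* ranked 27, miR-130b 42, miR-130a 59, miR-301b 65 and miR-301a 93. The SD over the 5 members was 0.43, beside 0.77 over the 137 miRNAs, whose quartiles were -0.74 and 0.30.

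**Figure D2:**
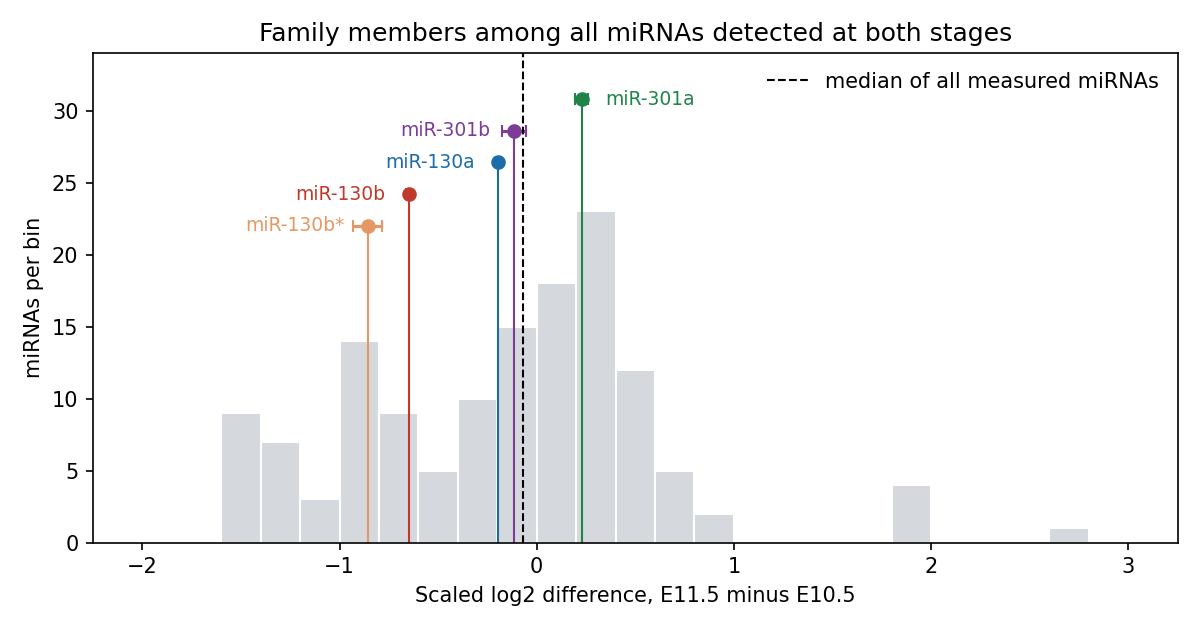
Scaled log2 differences, E11.5 minus E10.5, of the 137 miRNAs detected at both stages (grey bars, miRNAs per bin), with the 5 family members as coloured points at arbitrary heights and their SE over spots as horizontal bars. miR-130b* (-0.86) and miR-130b (-0.65) lie to the left of miR-130a (-0.20) and miR-301b (-0.12), which are near the dashed median of all miRNAs (-0.07), and miR-301a (0.23) lies above it.

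A single divisor per array cancels in a difference between members, so the 10 pairs were compared, and alternatives that leave a pair's value as it is are not counted below. The measure used beside the spot error was the disagreement between probes of one miRNA: over 80 miRNAs with more than 1 detected probe, these lay a median of 0.060 apart in log2 difference, with a 90th percentile of 0.17. Of the 10 pairs, 9 differed by more than that 90th percentile, but the probes of miR-301b lay 0.29 apart, so for the 4 pairs with miR-301b this measure is too small. How many pairs among all 137 miRNAs, whose differences had an SD of 0.77, exceed it was not counted. The number 9 can therefore not be read as a trait of the family. The largest difference was 1.08 ± 0.079 (SE), for miR-301a over miR-130b*, and the smallest 0.079 ± 0.062, for miR-301b over miR-130a. In 6 of the 10 pairs the direction was the same under each alternative processing that changed the value, and in 4 it was not.

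The close relatives miR-130a and miR-130b differed by 0.45 ± 0.017 (SE), so that miR-130a gained 1.37-fold more signal than miR-130b. The difference ran from 0.44 to 0.78 over the 7 alternatives that changed it. It was among the 6 pairs with one direction, and both miRNAs rest on 2 bright probes that lay close together.

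miR-301a over miR-130b differed by 0.88 ± 0.034, a 1.84-fold larger gain, and from 0.53 with normexp to 0.94 with the negative-control mean taken off. This pair also had one direction under the 9 alternatives that changed its value. The 2 miRNAs share a seed and no transcript, one lying in the span of Ska2 and the other next to Mir301b.

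Within the miR-301 pair, miR-301a gained more than miR-301b, by 0.34 ± 0.069, with a range of 0.22 to 0.79 over the 11 alternatives that changed it, all in the same direction. Of the 20-base probes that differ at 1 base, that of miR-301a was not detected at E10.5 and did not enter the 0.34. On the miR-301a side that value rests on the 21-base probe alone. miR-301a over miR-130a, at 0.42 ± 0.034, was not as stable: it was 0.058 with normexp and -0.11 in the authors' deposited value table.

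The neighbours miR-301b and miR-130b differed by 0.53 ± 0.062, although their hairpins lie next to each other on one strand. This difference was -0.018 with normexp and, where undetected probes were kept and raised to the lowest detected value of the array (no filter and a floor), -0.10. It was above 0 in 8 of the 10 alternatives that changed it. At E10.5, 1 of the 2 miR-301b probes was near the detection limit (33.5, against 30.9 for the lowest detected probe). The 2 arms of Mir130b differed by 0.21 ± 0.074, from -0.24 in the authors' deposited value table to 0.60 with no filter and a floor.

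Against the median of all miRNAs under the same processing, miR-301a was above in the 11 alternatives that changed that distance. miR-130b was below in 10 of 11 and miR-130b* in 8 of 9, the exception in each being the setting with no filter and a floor, where most miRNAs sit at the floor. miR-130a was below in 7 of 11 and miR-301b in 8 of 11.

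**Figure D3:**
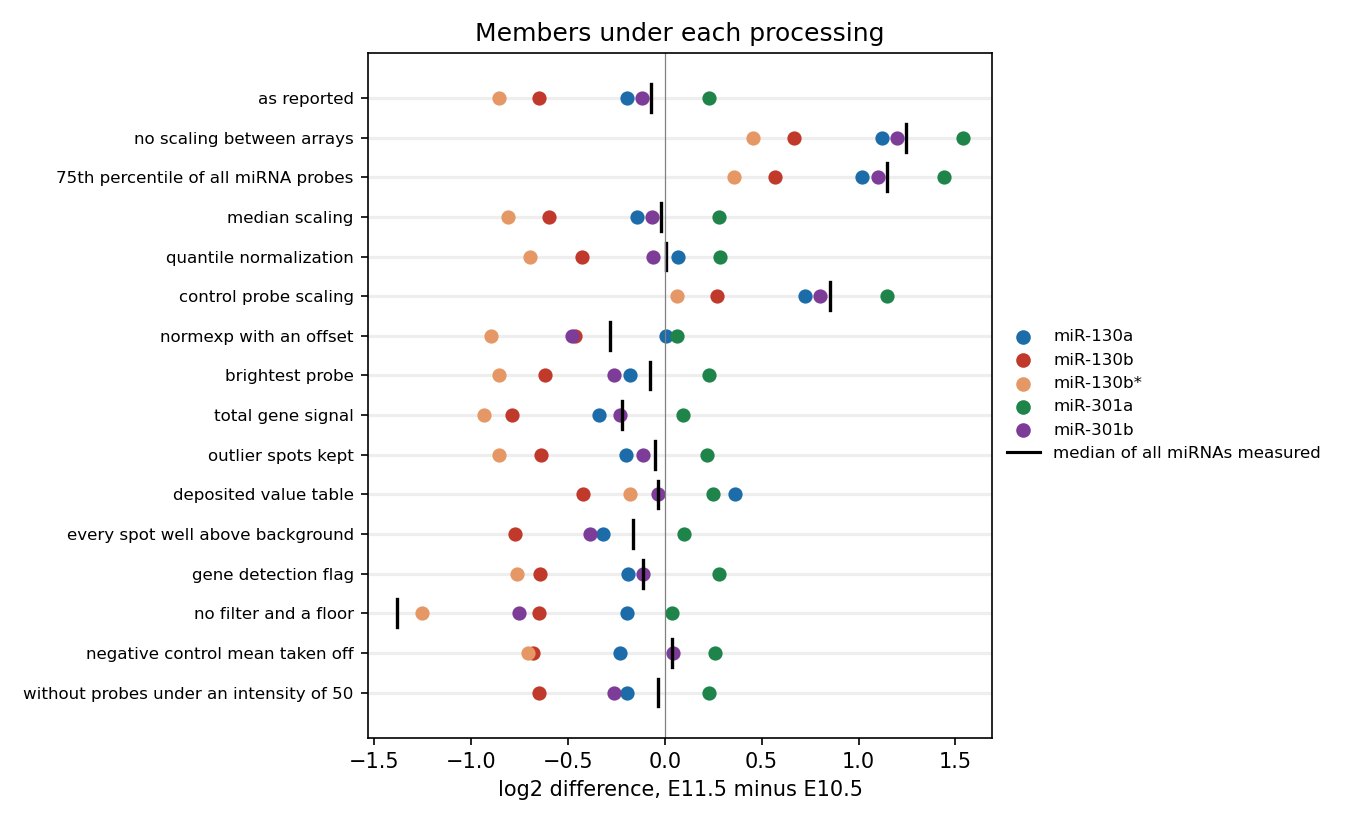
log2 differences, E11.5 minus E10.5, of the 5 members (coloured points) under the processing as reported and 15 alternatives, with the median of all miRNAs measured in each as a black bar. Points shift together with no scaling, from -0.20 to 1.12 for miR-130a, while miR-301a stays to the right of the black bar in each line and miR-130b to its left in each line but that with no filter and a floor.

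The remaining products of the family's genes gave no signal. Those of the other arms, miR-130a*, miR-301a* and miR-301b*, were read by 6 probes, of which 0 spots were well above background, with probe means from -1.66 to 3.79 over both stages. miR-721, which carries the family's seed, was read by 4 probes with means from -5.58 to 1.01 and 0 spots well above background. Its 4 probes were short, and no level follows from them.

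miR-148a, miR-148b and miR-152 carry a related seed, CAGUGCA, which holds the first 6 bases of the family's seed shifted by 1 position. They are known for repressing the DNA methyltransferase Dnmt1. miR-148a, the only one of the 3 detected at both stages, had a scaled difference of 0.25 ± 0.052 (SE) on its longer probe (51.7 ± 6.87 at E10.5, n = 19 spots, and 153 ± 13.3 at E11.5, n = 20), close to that of miR-301a. miR-148b and miR-152 were detected at E11.5 only. The brighter probe of miR-148b read 25.2 ± 5.90 at E10.5 and 57.5 ± 6.57 at E11.5 (at least 1.86-fold brighter before scaling), and that of miR-152 read 17.2 ± 3.56 and 76.9 ± 7.29 (at least 2.49-fold). After scaling miR-148b had no bound above 1, and that of miR-152 was at the limit of 1.

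Outside the family, the 5 miRNAs whose scaled difference was nearest to the family median, over these 2 arrays, were miR-28 (-0.20), miR-324-5p (-0.19), miR-342-3p (-0.22), miR-331-3p (-0.23) and miR-361 (-0.16). Each lay within 0.033 of it. Nearness over 2 arrays is a weak measure of likeness, since the quartiles of all 137 differences span from -0.74 to 0.30.

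Markers of the dissected tissue and of other cells were read on the same arrays. Of 5 mesenchymal miRNAs on the array, E10.5 had 3 detected and E11.5 had 4, with summed intensities of their brightest probes of 6731 and 18210. The 3 measured at both stages had scaled differences with a median of 0.08, from 0.07 to 0.28, and miR-145 was near 0 at both (-0.42 and 0.34). Of 4 skeletal muscle miRNAs, E10.5 had 0 detected and E11.5 had 4 (summed intensity 19.2 and 671), with miR-206 at -1.87 at E10.5. The markers that were lower relative to the other miRNAs, as miR-130b was, were the 4 of 7 epithelial ones measured at both stages (median -1.37, from -1.59 to -0.85, summed intensity 718 and 792), endothelial miR-126-3p (-0.81, with the list's sum at 329 and 461) and erythroid miR-451 (-0.60, sum 93.1 and 152). miR-126-5p was not detected, and erythroid miR-144 was near 0 (1.69 and 3.54). Of 5 leukocyte miRNAs, E10.5 had 0 and E11.5 had 1 (sum 40.3 and 58.6), and of 3 neural ones 1 at each stage (sum 31.1 and 118), miR-218, with a scaled difference of 0.50. Neural miR-9 (1.33 and 2.83) and miR-124 (-3.05 and 0.034) were not detected at either stage. The part of these cell types in the family's differences was not tested. Both arrays lay on 1 slide and were read in 1 scan, per the file headers, so the position on the slide and the stage cannot be told apart.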

How the data were processed

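Total RNA of 2 pools, 1 per stage, was labelled with the dye Cy3 for Agilent miRNA arrays of 1 colour, as the labels' protocols state. The scanner files the authors deposited hold intensity per spot, spatially detrended and not normalized between arrays, per the file headers, which name Feature Extraction 10.7.1.1, design 031184 and mm9. The submitters' processing notes name version 9.5.1.1. How the authors normalized the deposited value table (also intensity, linear) is not given in the sources used here. Its columns have medians of 0.1 and 0.1 and the same highest value (3256).

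Outlier-flagged spots (2058 and 2118 of 43200) were left out, the others averaged per probe, and the means divided by the 75th percentile described above. A miRNA's value is the mean log2 difference over its probes detected on both arrays. For probes detected at E11.5 only, the bound is the E11.5 mean over the higher of the probe's own E10.5 mean and the lowest detected probe there. Counts use a 2-fold threshold. Members, lists and alternatives were chosen with earlier results of these data known. Named besides the members are seed relatives, other arms, cell type markers and the 5 miRNAs nearest to the family median. Probe names and mm9 positions are the array's. The scaling and the 2-fold calls were tested on simulated data, with every spot set as well above background and none as an outlier. The detection limit, the removal of outliers and the bounds were not tested there. The number of arrays limits the precision. Tools were Python 3.11.15, numpy 2.4.6, pandas 2.3.3, matplotlib 3.10.9, R 4.3.3 and limma 3.58.1.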

Additional observations from a re-analysis of the deposited data

How the results depend on the processing

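The family median (-0.20) turned positive without scaling (1.12), after scaling to the 75th percentile of all miRNA probes (1.02) and with control probe scaling (0.72, over 20 control probes), and so did 4 members: miR-130a (1.12, 1.02 and 0.72), miR-130b (0.67, 0.57 and 0.27), miR-130b* (0.46, 0.36 and 0.063) and miR-301b (1.20, 1.1 and 0.80). These settings move all miRNAs together, with their median at 1.24, 1.15 and 0.85. miR-130a was also above 0 with quantile normalization (0.070), with normexp (0.0074) and in the deposited value table (0.36), and miR-301b with the negative-control mean taken off (0.045). The family median moved, without a change of sign, to -0.46 with normexp (offset 50), -0.34 with the total gene signal, -0.033 in the deposited value table, -0.35 with detection by every spot (4 members) and -0.65 with no filter and a floor. In the same order, the median of all miRNAs was -0.28, -0.22, -0.035, -0.16 and -1.38. The family was thus level with it in the deposited value table and above it with the floor. The family median differed by less than the spot SD with the other 7 alternatives. miR-301a stayed above 0 in all 15, from 0.040 with no filter and a floor to 1.54 with no scaling. The settings with the negative-control mean taken off and without probes under an intensity of 50 were chosen after seeing the data. No paired analysis was possible because each stage has 1 array, and for that reason no array could be left out. Signal over background limits miR-130b* (33.2 at E10.5) and the shorter of the 2 miR-301b probes used (33.5), since the lowest detected probe there read 30.9.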
